A study of Mus musculus with 4 samples.

Results

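Ribosomal protein pseudogenes were taken from the deposited count table as every row whose symbol begins with Rpl or Rps, ends in -ps with or without a number, and carries a pseudogene biotype. The rule gave 314 of 56748 rows, of which 305 were annotated as processed pseudogenes and 9 as transcribed processed pseudogenes. Each was set beside its parent, the ribosomal protein gene named by the symbol before -ps, and 62 of the 64 parent symbols had a row of their own. The 2 members without a parent row, Rps4l-ps and Rpl48-ps1, had no reads. A further 8 rows carried such a symbol with another biotype and were left out.

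Ribosomal protein genes are among the most highly transcribed genes of dividing cells, and their short, spliced messages have been copied back into mammalian genomes many times by reverse transcription. The resulting processed pseudogenes lack introns and usually the promoter of the source gene, and many have since gathered mutations that break the reading frame. Young copies are nearly identical to the parent mRNA, so short reads from the mature message and from a copy can be hard to tell apart.

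The libraries came from E14 cells, a mouse embryonic stem cell line grown with leukemia inhibitory factor, and compared wild-type cells (WT, 2 libraries) with cells in which Npac had been knocked out with CRISPR/Cas9 (Npac KO, 2 libraries). Npac, whose gene symbol is Glyr1, is a nuclear protein that binds nucleosomes. The KO cells had passed through electroporation, puromycin selection and colony picking, and the study describes KO clone 1 and clone 2 and names KO1 and KO2 as separate knockout lines. Whether the WT libraries came from separate cultures is not given in the sources used here, so p-values measure the spread between these libraries, which may be technical in WT. Total counts ran from 15850805 to 16965120 per library. Glyr1 itself had 3961 and 3115 reads in WT and 744 and 888 reads in Npac KO, a log2 change of -2.14 ± 0.23 (SE, adjusted p = 0.00174, edgeR quasi-likelihood test across all genes with Benjamini-Hochberg adjustment, as for all fold changes here). All 8 embryonic stem cell markers examined had at least 100 reads in every library, with a summed level of 4851 and 3964 CPM (reads divided by the library's total count) in WT and 2984 and 2869 in Npac KO. Zfp42 went from 910 and 735 CPM to 128 and 132. Pou5f1, Sox2 and Esrrb were also lower in both KO libraries than in both WT libraries. Nanog overlapped between genotypes, while Dppa4, Utf1 and Lin28a were higher in both KO libraries than in both WT libraries. Of 8 fibroblast markers, 4 (Col3a1, Lum, Dcn and Postn) had at most 3 reads in every library, and the summed level was 39.6 to 80.3 CPM. Col1a1 had 85 and 168 reads in WT and 285 and 326 in Npac KO, and Col1a2 had 3 and 5 against 18 and 16. Thy1, at 397 to 858 reads, and Pdgfrb, at 74 to 299, overlapped between genotypes. For 6 primitive endoderm markers the sums were 280 and 312 CPM in WT and 444 and 457 CPM in Npac KO, and Sparc alone made up 269 and 292 CPM of the WT sums and 430 and 436 CPM of the KO sums. Dab2 was lower in both KO libraries, Gata4, Gata6 and Sox17 overlapped between genotypes, and Foxa2 had at most 2 reads. The part of these marker differences in the results was not tested. In these bulk samples, fewer cells of a type and less RNA per cell cannot be told apart.

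The members that held the most reads differed from their parents at a handful of positions, and the following sequences show how little there is for a read to tell them apart. All come from the GENCODE M21 transcripts, matched by gene ID, in 5′ to 3′ orientation, with the bases that differ between pseudogene and parent in capitals. Substitutions give the parent's base, the position counted from the A of the parent's start codon, and the pseudogene's base. Rpl34-ps1, a copy of the gene for a large-subunit protein, aligned over 354 bases with 2 mismatches, T132C and C318G, and kept a full-length open reading frame. Bases 19 to 318 of the Rpl34 coding sequence hold both of them.
Rpl34-ps1: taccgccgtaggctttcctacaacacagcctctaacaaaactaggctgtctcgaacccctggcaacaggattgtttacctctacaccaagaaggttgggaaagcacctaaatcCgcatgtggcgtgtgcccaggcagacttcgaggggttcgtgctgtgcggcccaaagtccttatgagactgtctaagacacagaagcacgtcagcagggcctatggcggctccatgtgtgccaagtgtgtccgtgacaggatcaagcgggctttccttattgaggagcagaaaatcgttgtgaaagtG
Rpl34: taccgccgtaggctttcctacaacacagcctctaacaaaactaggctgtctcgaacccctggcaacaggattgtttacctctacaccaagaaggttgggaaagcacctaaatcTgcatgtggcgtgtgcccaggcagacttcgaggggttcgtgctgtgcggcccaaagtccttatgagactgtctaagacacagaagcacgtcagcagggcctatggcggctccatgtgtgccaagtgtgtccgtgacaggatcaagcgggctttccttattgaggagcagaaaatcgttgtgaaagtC

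Rps13-ps1, a copy of a small-subunit gene, also had 2 mismatches over 522 aligned bases, T411C and A429G. Coding bases 280 to 429 of Rps13 cover both.
Rps13-ps1: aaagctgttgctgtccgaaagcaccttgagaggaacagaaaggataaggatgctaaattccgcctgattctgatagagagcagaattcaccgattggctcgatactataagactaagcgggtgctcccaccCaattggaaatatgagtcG
Rps13: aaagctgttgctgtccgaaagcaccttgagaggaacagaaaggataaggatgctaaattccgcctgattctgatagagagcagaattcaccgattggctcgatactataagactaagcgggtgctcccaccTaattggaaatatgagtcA

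Rpl15-ps6 carried A156G and C202A against the large-subunit gene Rpl15, over 612 aligned bases. Its longest open reading frame covered 17.2% of the parent's codons. Coding bases 53 to 202 of Rpl15 are shown.
Rpl15-ps6: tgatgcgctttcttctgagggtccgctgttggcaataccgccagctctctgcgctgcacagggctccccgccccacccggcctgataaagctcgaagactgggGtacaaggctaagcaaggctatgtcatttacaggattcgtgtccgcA
Rpl15: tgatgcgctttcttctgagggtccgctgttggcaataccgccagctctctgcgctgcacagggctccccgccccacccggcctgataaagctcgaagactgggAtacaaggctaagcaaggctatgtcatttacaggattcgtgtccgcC

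Rps10-ps2 is shown because it outweighed its parent in all 4 libraries. Its 5 mismatches, T393C, T408C, C437G, A438G and G473A, all fall within coding bases 324 to 473 of the small-subunit gene Rps10.
Rps10-ps2: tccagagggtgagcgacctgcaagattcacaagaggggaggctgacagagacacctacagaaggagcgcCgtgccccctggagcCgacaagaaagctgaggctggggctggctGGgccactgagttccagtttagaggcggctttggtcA
Rps10: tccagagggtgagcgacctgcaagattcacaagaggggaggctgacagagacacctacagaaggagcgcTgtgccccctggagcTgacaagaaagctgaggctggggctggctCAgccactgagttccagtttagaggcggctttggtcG

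A stretch of 150 bases, the length of 1 read of a pair, is identical in pseudogene and parent at 17.6% of positions along Rpl34-ps1, 73.8% along Rps13-ps1, 57.7% along Rpl15-ps6 and 70.0% along Rps10-ps2. With identical stretches in any other gene counted too, the share was 59.5% for Rpl34-ps1 and 78.4% for Rps13-ps1. It stayed at 57.7% for Rpl15-ps6 and 70.0% for Rps10-ps2. Whether the second read of a pair separates the copies was not examined. Rpl15-ps3, Rps12-ps3, Rps13-ps2 and Rps16-ps2 matched their parents at every aligned base. How the counting step treated reads that match several places is not given in the sources used here, so the count of any member this close to its parent is uncertain.

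Of the 314 members, 125 had no reads in any library, 92 had some reads but fell below the expression filter, and 97 were tested. Identity with the parent was higher in members with more reads. The median identity was 92.25% for the 123 members without reads that could be aligned, 97.05% for those with reads below the filter, and 99.18% for those tested. The 34 members with at least 1000 reads over the 4 libraries had a median identity of 99.64% and a minimum of 98.79%. These values are a description, since members of 1 family share a sequence and reads between copies cannot be assigned with certainty. Whether larger families held more reads was not tested. Rpl31 and Rps12 had the most members, 24 each, of which 1 and 4 were tested, while Rpsa had the most tested members, 6 of 12.

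**Figure D1:**
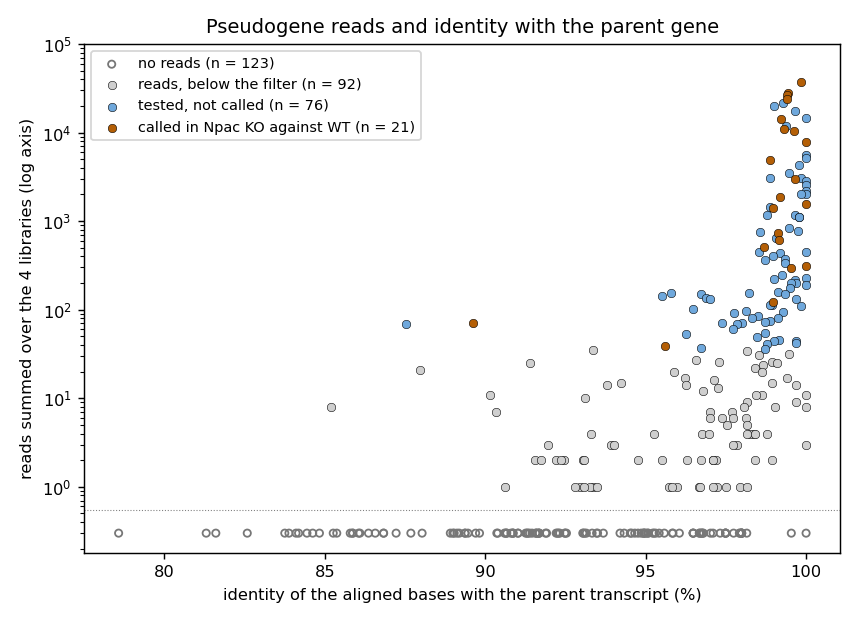
Each point is 1 of the 312 ribosomal protein pseudogenes that could be aligned, placed by the percent identity of its aligned bases with the parent transcript (x axis) and by its reads summed over the 4 libraries (y axis, log scale, with members without reads below the dotted line). Members with at least 1000 reads lie at 98.79% identity or above, while members without reads spread down to 78.57%.

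Together the members took 92366 and 118041 reads in WT1 and WT2, and 51127 and 52140 reads in KO1 and KO2. As a share of the library this was 0.583% and 0.712% in WT against 0.315% and 0.307% in Npac KO, so the KO libraries lay below both WT libraries. The mean share was 0.648% ± 0.0917 in WT and 0.311% ± 0.00538 in Npac KO (SD, n = 2 each). No test was run on this sum. The 84 cytosolic ribosomal protein genes took 8.54% ± 1.29 of reads in WT and 7.52% ± 0.51 in Npac KO, a difference smaller than the SD of WT. Set against the reads of those genes, the members made up 7.64% and 7.54% in WT and 4.0% and 4.29% in Npac KO.

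Of the 97 tested members, 17 fell and 4 rose in Npac KO (adjusted p under 0.05, with the fold change also above 1.5). The share called was 21.6%, beside 21.7% of the 18157 genes tested, so in this respect the members were like the background. By direction, 17.5% of tested members fell, beside 10.7% of all genes, and 4.12% rose, beside 11.0%. Among 894 other processed pseudogenes, 15.3% fell and 8.28% rose. These 894 still held copies of ribosomal protein genes that lack a -ps symbol. The median log2 fold change was -0.21 over the tested members and 0.0015 over all genes, and the difference between these lists was not tested. Both KO libraries lay below both WT libraries for 42 members (43.3%, all genes 32.5%) and above them for 18 (18.6%, all genes 33.2%), and the genotypes overlapped for 37. For the other processed pseudogenes these shares were 32.9% below and 28.0% above. The 21 called members belonged to 13 of the 45 families with a tested member. Members that rose numbered 9 without WT2, 1 without KO1 and 2 without KO2. The filter keeps a row that is high in 1 genotype alone, so these counts cover the 97 tested rows and not all members.

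**Figure D2:**
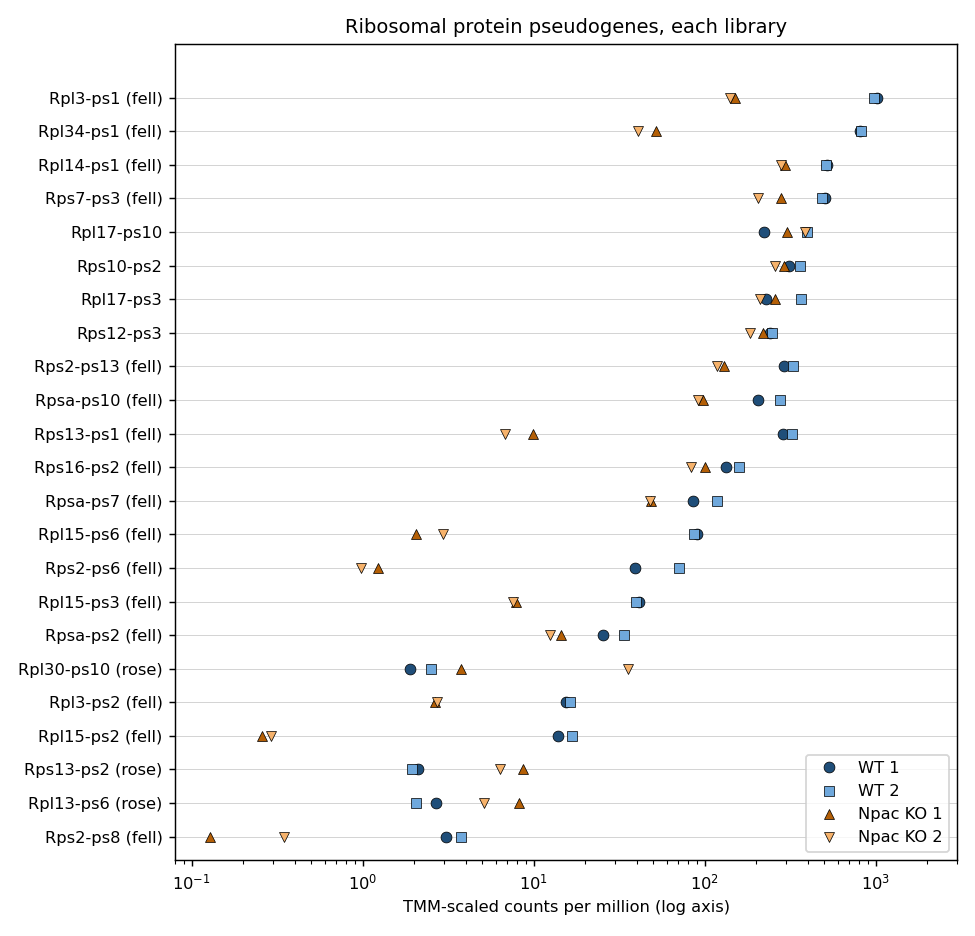
TMM-scaled CPM (x axis, log scale) of the 23 named pseudogenes with at least 100 reads over all libraries, in each of the 4 libraries, ordered by their mean level, with fell or rose after a symbol where the test called it. Every plotted pseudogene had reads in every library. For Rpl34-ps1, Rps13-ps1, Rpl15-ps6, Rps2-ps6 and Rpl15-ps2 the KO points lie more than 1 decade left of the WT points.

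Among pseudogenes of large-subunit genes, Rpl34-ps1 changed most against its parent. It had 12260 and 14291 reads in WT and 802 and 700 in Npac KO, so the KO level was 5.68% of WT. The log2 fold change was -4.14 ± 0.22 (SE, adjusted p = 1.22e-04). Rpl34 moved the opposite way, from 264 and 299 reads to 9752 and 8546, a log2 change of 5.03 ± 0.23 (adjusted p = 5.98e-05), the only such opposite pair among the called members. FPKM divides reads by gene length and by a scale for each library. Per length, the WT libraries held 2252 and 2291 FPKM of Rpl34-ps1 beside 6.50 and 6.42 FPKM of Rpl34. The KO libraries held 145 and 112 beside 237 and 183. In the files the pseudogene (ENSMUSG00000068396) lies on chromosome 6, from 71101594 to 71101947 on the plus strand.

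Rpl3-ps1, the member with the most reads, copies the gene of a protein near the peptidyl transferase center. Its reads were 15551 and 16996 in WT and 2319 and 2420 in Npac KO, on chromosome X (13068810 to 13070019). The log2 fold change was -2.78 ± 0.19 (adjusted p = 3.51e-04). Rpl3-ps2, at 235 and 285 reads in WT and 41 and 47 in Npac KO, had a log2 change of -2.56 ± 0.32. Their parent Rpl3 was at 25029 and 29338 reads in WT and 38752 and 37091 in Npac KO, and did not pass the test (log2 fold change 0.48, adjusted p = 0.114). The KO libraries thus lay below WT for both copies and above WT for the parent.

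Rpl15 had 3 called copies, and all of them fell. Rpl15-ps6 went from 1371 and 1501 reads to 32 and 51, a log2 change of -5.12 ± 0.26 (adjusted p = 9.03e-05). Rpl15-ps2, which overlaps Tcf12, went from 211 and 293 reads to 4 and 5. No other member reached 100 reads in each library of 1 genotype while staying at 10 or fewer in each of the other, and its summed reads per library total were 57.4 times higher in WT (95% exact binomial interval 30.0 to 126, counting error only). Rpl15-ps3, identical to the parent over 615 bases, went from 630 and 691 reads to 123 and 130 (log2 fold change -2.39 ± 0.23). Rpl15 itself had 9474 and 10116 reads in WT and 11719 and 12039 in Npac KO, a log2 change of 0.27 (adjusted p = 0.310).

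Rpl14-ps1 moved with its parent. The pseudogene had 7959 and 8980 reads in WT and 4591 and 4849 in Npac KO (log2 fold change -0.85 ± 0.18, adjusted p = 0.0152), and Rpl14 23408 and 29435 against 13858 and 14645 (log2 fold change -0.89 ± 0.19, adjusted p = 0.0161). The pseudogene made up 23.4% to 25.4% of their joint reads in every library. It overlaps Trpm4 on the opposite strand, the strand setting of the counting is not given in the sources used here, and its call was lost without either KO library.

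Rpl17-ps10 and Rpl17-ps3 were among the 8 most abundant members and did not pass the test. Rpl17-ps10 had 3408 and 6907 reads in WT and 4671 and 6682 in Npac KO, and Rpl17-ps3 3471 and 6348 against 3974 and 3647. The genotypes overlapped for both. Rpl17, a protein at the peptide exit tunnel, had 10265 and 7568 reads in WT and 5192 and 3304 in Npac KO (log2 fold change -1.07 ± 0.32, adjusted p = 0.0471).

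The members that rose were mostly low. Rpl30-ps10 had 29 and 44 reads in WT and 58 and 612 in Npac KO, so its call (log2 fold change 3.14 ± 0.90, adjusted p = 0.0439) rested on KO2 and was lost without that library. Rpl13-ps6 rose from 41 and 36 reads to 127 and 89 (log2 fold change 1.49 ± 0.43, adjusted p = 0.0444), a call lost without either KO library. Rplp0-ps1, a copy of the ribosomal stalk gene Rplp0, had 1 and 0 reads in WT and 25 and 13 in Npac KO, which gave a ratio of 37.1 between summed reads per library total (95% exact binomial interval 6.27 to 1504). It overlaps Flg on the same strand. The parents Rpl30 and Rplp0 were called up as well, with log2 fold changes of 4.13 ± 0.31 and 0.78 ± 0.20, and Rpl13 was not (0.24, adjusted p = 0.423).

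Among pseudogenes of small-subunit genes, Rps13-ps1 changed most among those with over 1000 reads in each WT library. It had 4388 and 5646 reads in WT and 153 and 117 in Npac KO, or 2.72% of the WT level, and its log2 fold change was -5.20 ± 0.26 (adjusted p = 9.03e-05). It lies on chromosome 8, from 87774317 to 87774854. Genes of chromosome 8 were shifted the other way as a whole. Their median log2 differences from WT were 0.51 in KO1 and 0.52 in KO2. Chromosome 11, which held no called member, was shifted in the same direction, by 0.51 in KO1 and 0.48 in KO2. Removing the median of each chromosome left all 21 calls in place. Rps13-ps2, identical to Rps13 over 453 bases, rose from 32 and 34 reads to 135 and 110 (log2 fold change 1.89 ± 0.40, adjusted p = 0.0159), a call lost without KO1. Rps13 had 6552 and 7872 reads in WT and 10851 and 9957 in Npac KO (log2 fold change 0.53, adjusted p = 0.0824).

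The Rps2 family had 3 called copies, and all fell. The product of Rps2 sits at the mRNA entry channel of the small subunit. Rps2-ps13 had 4408 and 5698 reads in WT and 2001 and 2051 in Npac KO (log2 fold change -1.31 ± 0.18, adjusted p = 0.00429). Rps2-ps6 had 598 and 1233 reads in WT, with WT2 well above WT1, and 19 and 17 in Npac KO (log2 fold change -5.63 ± 0.39, adjusted p = 3.89e-04). Rps2-ps8 went from 47 and 66 reads to 2 and 6, a ratio of 14.5 between summed reads per library total (95% exact binomial interval 7.10 to 34.3). Rps2 itself was not called, at 34198 and 44424 reads in WT and 40199 and 38871 in Npac KO, a log2 change of 0.02 ± 0.20 (adjusted p = 0.967).

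Rps7-ps3, on chromosome X from 151692501 to 151693151, fell from 7673 and 8430 reads to 4308 and 3554 (log2 fold change -1.03 ± 0.21, adjusted p = 0.0140), a call lost without KO2. The row overlaps Rpl7a-ps12. Rps7 was not called, with 10400 and 12263 reads in WT and 12684 and 11582 in Npac KO (log2 fold change 0.10, adjusted p = 0.733).

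Copies of Rpsa, the small-subunit protein also known as the laminin receptor, moved with their parent. Rpsa-ps10 had 3119 and 4827 reads in WT and 1525 and 1569 in Npac KO (log2 fold change -1.35 ± 0.21, adjusted p = 0.00592). Rpsa-ps7 went from 1297 and 2067 reads to 754 and 831, and Rpsa-ps2 from 389 and 586 to 223 and 216, with log2 fold changes of -1.07 and -1.14. The last pair of calls was lost without either KO library. Rpsa was at 65935 and 92387 reads in WT and 34175 and 32900 in Npac KO (log2 fold change -1.23 ± 0.22, adjusted p = 0.0091). Rps16-ps2, identical to Rps16 over 441 bases and overlapping Adgrd1, fell least of the called members, from 2035 and 2750 reads to 1549 and 1428 (log2 fold change -0.67 ± 0.19, adjusted p = 0.0433). Its call was lost without any 1 of WT2, KO1 and KO2. Rps16 itself had 16947 and 23448 reads in WT and 14006 and 12883 in Npac KO. Its log2 fold change was similar, at -0.58 ± 0.21, but was not called (adjusted p = 0.0836).

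Rps10-ps2 and Rps12-ps3 were abundant in both genotypes and did not pass the test. Rps10-ps2 had 4767 and 6304 reads in WT and 4536 and 4435 in Npac KO (log2 fold change -0.30, adjusted p = 0.284), while Rps10 had only 209 and 329 reads in WT and 304 and 357 in Npac KO. Per length this was 625 and 721 FPKM of Rps10-ps2 beside 5.88 and 8.08 FPKM of Rps10 in WT, and 586 and 507 beside 8.43 and 8.77 in Npac KO. Rps12-ps3, which overlaps Pdzd8, had 3696 and 4297 reads in WT and 3393 and 3159 in Npac KO (log2 fold change -0.28, adjusted p = 0.295).

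Calls were spread unevenly among large families. Of the 10 families with more than 10 members, Rpsa and Rps2 (12 members each) had 3 called members each, out of 6 and 4 tested. Rpl31, Rps12, Rpl21, Rps19, Rpl7a, Rpl23a and Rpl19, which between them encode proteins of both subunits, had 1 to 4 tested members each and none called. The Rpl17 family, with 11 members and 5 tested, also had none called. The 76 tested members that were not called held from 36 to 21668 reads over the 4 libraries, and their log2 fold changes ran from -1.85 to 1.38 with a median of -0.11.

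Whether a pseudogene and its parent changed unequally was tested on the log2 ratio of their levels, over all 206 such pairs in the table. The ratio was called for 52 of the 206 pairs (25.2%), and for 21 of the 97 members (21.6%). It fell for 16 members (16.5%, all pairs 19.9%) and rose for 5 (5.15%, all pairs 5.34%). The change was -9.15 ± 0.10 log2 units for Rpl34-ps1 (limma, adjusted p = 3.98e-07), -5.73 ± 0.15 for Rps13-ps1, -5.36 ± 0.24 for Rpl15-ps6, -3.26 ± 0.11 for Rpl3-ps1 and -1.14 ± 0.11 for Rps7-ps3. Of the 17 members that fell, 12 also fell against their parent. The other 5 were Rpl14-ps1, Rps16-ps2 and the copies of Rpsa, whose ratios moved by -0.11 to 0.17 log2 units. Without WT1, 11 of the 21 ratio calls were kept, and the losses included Rps2-ps8, Rplp0-ps1 and Rps10-ps2, while without WT2 15 were kept. By the parent's own call, 4 of the 17 had a parent that also fell, 12 a parent that was not called, and 1 a parent that rose.

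**Figure D3:**
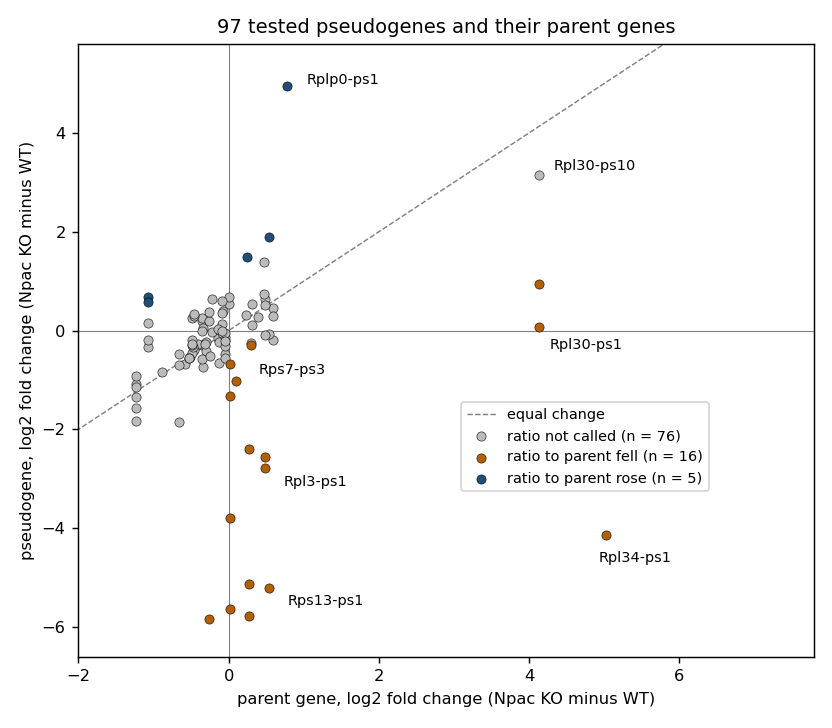
Log2 fold change (Npac KO minus WT) of each of the 97 tested pseudogenes (y axis) against that of its parent gene (x axis), with the dashed line marking equal change and colors marking the test of the ratio. Rpl34-ps1 lies farthest from the line, with its parent at 5.03 and itself at -4.14, and 76 of the 97 points were not called.

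In reads, Rpl34-ps1 made up 97.9% and 98.0% of its joint reads with Rpl34 in WT and 7.60% and 7.57% in Npac KO. The share of Rps13-ps1 went from 40.1% and 41.8% to 1.39% and 1.16%, and that of Rpl3-ps1 from 38.3% and 36.7% to 5.65% and 6.12%. Rps10-ps2 held 95.8% and 95.0% in WT and 93.7% and 92.6% in Npac KO, a small shift that was called (ratio change -0.62 ± 0.15, adjusted p = 0.0372) and was lost without WT1 or without KO2. That call was also lost when only pairs with at least 10 pseudogene reads in every library were tested. For the first 3 of these pairs the libraries of a genotype lay far closer to each other than to those of the other genotype.

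Some ratios were called where the pseudogene alone was not. Rpl17-ps5 and Rpl17-ps9 rose against Rpl17 by 1.80 ± 0.45 and 1.66 ± 0.40 log2 units, and Rpl30-ps1 and Rpl30-ps8 fell against Rpl30 by 4.27 ± 0.88 and 3.32 ± 0.65. Rps2-ps10 fell against Rps2 by 0.70 ± 0.15. All 5 of these calls were lost without WT1, and those of Rpl30-ps1, Rpl30-ps8 and Rps2-ps10 also without WT2. Rps2-ps10 was lost without KO2 as well, and Rpl17-ps5 with a prior count of 0.5. Both Rpl17 calls were also lost when only pairs with at least 10 pseudogene reads in every library were tested. The remaining ratios that rose were those of Rps13-ps2 (1.29), Rpl13-ps6 (1.17) and Rplp0-ps1 (2.24), the last pair of which was lost without either WT library. The Rpl13-ps6 call was also lost with a prior count of 0.5 and with that limit of 10 reads, and the Rplp0-ps1 call without KO2.

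Reads of each parent and its -ps copies were then added up, which removes the split among those rows but not the split with other near-identical copies. With each parent and its -ps rows summed, 3 of the 62 families rose (Rpl29, Rpl30 and Rplp0, 4.84%) and 3 fell (Rpl14, Rpsa and Rps27, 4.84%), together 9.68%. Over all 17951 rows of that fit, 21.5% were called, 10.9% up and 10.6% down. The Rpl34 family had 12524 and 14592 reads in WT and 10554 and 9246 in Npac KO, and its log2 fold change was -0.45 ± 0.20 (adjusted p = 0.142), against 5.03 for the parent alone. The Rps13 sum was 11000 and 13605 reads in WT and 11176 and 10223 in Npac KO, a log2 change of -0.20 ± 0.19 (adjusted p = 0.50). The log2 fold change of the sum was -0.12 ± 0.20 for Rpl3, -0.02 ± 0.18 for Rpl15, -0.13 ± 0.20 for Rps2 and -0.27 ± 0.20 for Rps7, none of which passed the test. In each of these 6 families, then, a called pseudogene fell while the family sum was not called. In the Rps13 family another called pseudogene, Rps13-ps2, rose. Sums that fell numbered 12 without WT1 and 1 without KO1 or without KO2.

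The sums for Rpsa and Rpl14 fell like their parents, by 1.23 ± 0.22 and 0.88 ± 0.19 on the log2 scale (adjusted p = 0.00954 and 0.0172). For Rpl17 the pseudogenes held 40.8% and 64.1% of the family's reads in WT and 63.4% and 76.2% in Npac KO, and the log2 fold change of the sum was -0.44 ± 0.19 (adjusted p = 0.130), so the parent was called and the sum was not.

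**Figure D4:**
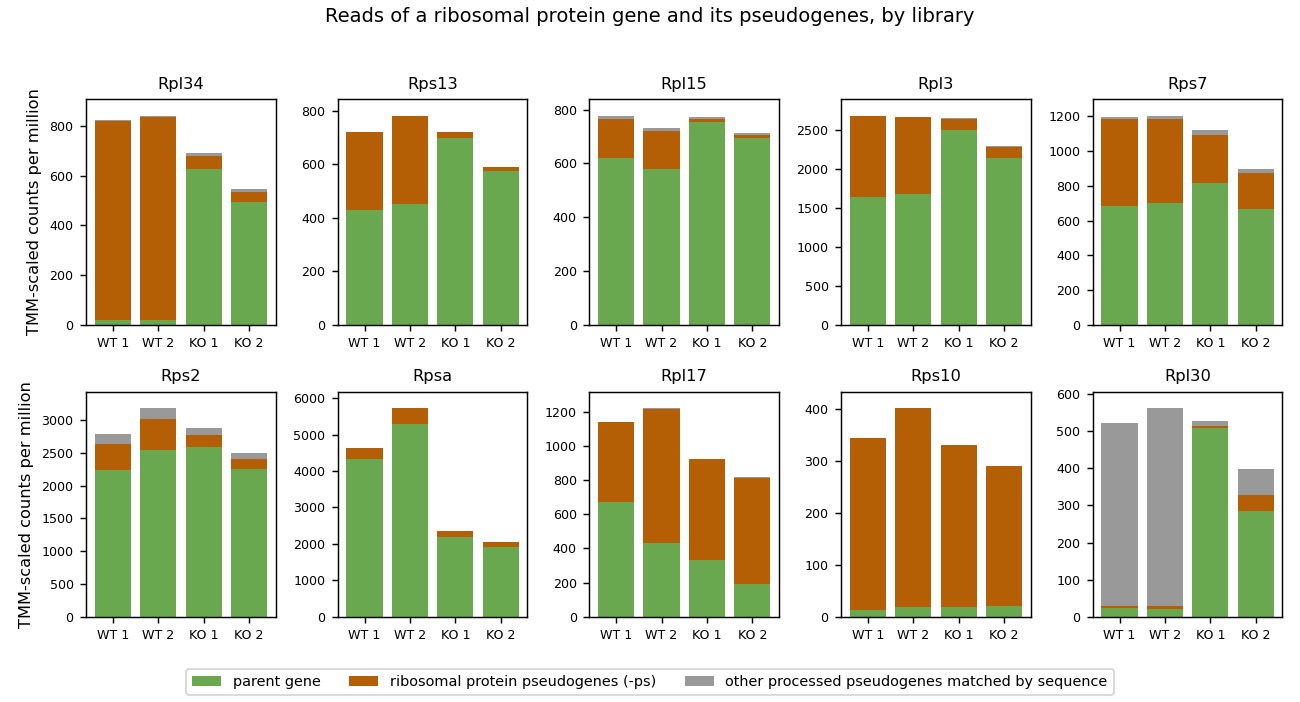
Stacked bars give the TMM-scaled CPM (y axis, from 0) of 10 parent genes, their -ps pseudogenes and other processed pseudogenes of at least 90% identity, in each library (x axis). The pseudogene part of Rpl34 is 97.4% in WT1 and in WT2, 7.45% in KO1 and 7.40% in KO2, while the pseudogene part of the Rpsa bars is 6.89% to 7.57% in every library.

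Adding every other processed pseudogene whose best match was the same parent (at least 90% identity over at least 60% of its length), an addition made after the data were seen, changed the picture for the families that had risen. The Rpl30 family then had 7986 and 9819 reads in WT and 8219 and 6904 in Npac KO, a log2 change of -0.23 ± 0.20 (adjusted p = 0.447), and within it Gm12191 went from 7523 and 9298 reads to 203 and 1230. Gm8730, a match to Rplp0, went from 17400 and 23141 reads to 217 and 211, and the log2 fold change of that family's sum was -0.16 ± 0.20 (adjusted p = 0.608). Only Rpl29 remained up, by 1.84 ± 0.18 (adjusted p = 0.00186), and Rpl14, Rpsa and Rps27 stayed down.

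Of the parents taken alone, 4 rose (Rpl29, Rpl30, Rpl34 and Rplp0) and 4 fell (Rpl14, Rpl17, Rpsa and Rps27), or 6.45% each way and 12.9% of the 62 in all. Over the full list of 84 cytosolic ribosomal protein genes 6 rose (7.14%) and 7 fell (8.33%), together 15.5%. Without WT1 the genes that fell numbered 12 among the parents and 19 in the full list, without KO1 2 and 3, and without KO2 1 and 2. The median log2 fold change was -0.15 over the parents and -0.18 over the full list.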

How the data were processed

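RNA-seq of E14 cells (total RNA, 150-base paired-end reads) gave 2 WT and 2 Npac KO libraries, grouped by their titles. The authors deposited raw counts per gene and FPKM for the same 4 libraries. The submitters' processing notes name HISAT2 2.0.5, featureCounts 1.5.0-p3 and mm10, and strand and multi-mapping settings are not given in the sources used here. Coordinates are printed as in the files. Only 8 of 314 members have the same coordinates in the GENCODE M21 annotation of GRCm38, so their build was not established, and sequences were taken by gene ID alone.

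Counts were tested with the edgeR 4.0.16 quasi-likelihood test (TMM scaling, filterByExpr, Benjamini-Hochberg adjusted p under 0.05 and fold change over 1.5) on the whole table. Log2 ratios of pseudogene to parent (prior count 2) were tested with limma 3.58.1 over all pairs. Family sums were refitted in edgeR. Members were aligned to the parent transcript with Biopython 1.88, and other processed pseudogenes were assigned with blastn 2.17.0+. The scripts were tested on simulated data. The members, lists and tests were chosen with earlier results of these data known. Named were the 8 most abundant members, all called members, members confined to 1 genotype by read limits, members whose parent was called the opposite way, their parents and Glyr1. Other rows are named where a sum or ratio turns on them and were chosen after their values were seen. The counts include 1 called member that is not reported here. Total counts of 15850805 to 16965120 put 3 reads at 0.177 to 0.189 CPM. Intervals cover counting error only.

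Alternatives were other scalings, filters, DESeq2 1.42.0, the deposited FPKM, a replicate block, chromosome medians removed and each library left out.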

Additional observations from a re-analysis of the deposited data

How the results depend on the processing

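All 21 member calls were kept with DESeq2's size factors, no filter on low counts, the replicate block and chromosome medians removed, 20 with upper-quartile scaling (without Rps16-ps2) or the DESeq2 Wald test (without Rpl30-ps10), and 19 on FPKM (without both). With at least 10 reads required in every library, only 17 of the 21 were still tested, and all 17 were kept. Leaving out WT1 kept all 21, WT2 20, KO1 14 of the 20 still tested and KO2 14 of 21, and no scaling moved the median of all genes by more than 0.046. The labels do not say that the replicate numbers pair the libraries (correlation of the WT and KO differences between numbers 0.33, 2 pairs). With the replicate block 3128 genes rose and 2994 fell, against 1999 and 1946 without it. Leaving out each library in turn gave 826 to 3571 genes up and 821 to 3384 down, 1 to 9 members up, 1 to 12 parents down, 2 to 19 cytosolic ribosomal protein genes down, 2 to 3 family sums up and 1 to 12 down, 1 to 9 ratios up and 10 to 17 down, and a difference in member share of -0.401 to -0.272 percentage points. Without WT1, 11 of the 21 ratio calls were kept, those of Rpl34-ps1, Rpl3-ps1, Rps13-ps1 and the copies of Rpl15 among them, and without WT2, 15.

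Parents called down numbered 2 and 1 on FPKM with a pseudocount of 0.1 and 1, and 2 with chromosome medians removed, against 4. Cytosolic ribosomal protein genes called down numbered 3, 2 and 4 in the same settings, against 7. Ratios that rose numbered 3 with a prior count of 0.5 and 1 with at least 10 reads in every library, against 5. Families by sequence match left 1 sum up, with Rpl30 at -0.23 and Rplp0 at -0.16. Without Rpl3-ps1 the member share differed by -0.250 percentage points, against -0.336.

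Directions that turned belonged to results that had not passed the test, apart from the Rpl30 and Rplp0 sums. Removing chromosome medians turned Rpl13 to -0.27 and its sum to -0.27, and the Rpl15 sum to 0.11, while upper-quartile scaling gave the Rpl15 sum 0.016. With 1 library left out, log2 fold changes ranged from -0.23 to 0.62 for Rpl17-ps10, -0.67 to 0.033 for Rpl17-ps3, -0.056 to 0.25 for Rps7, -0.10 to 0.13 for Rps2, -0.24 to 0.00063 for the Rpl3 sum and -0.084 to 0.054 for the Rpl15 sum. Ratio changes ranged from -0.038 to 0.12 for Rpl14-ps1, -0.086 to 0.22 for Rps12-ps3 and -3.74 to 0.30 for Rpl30-ps10. The causes were not tested. The design has 2 libraries a genotype, whether the WT libraries are separate cultures is not given in the sources used here, and members with few reads are limited by depth.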

Other observations

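Of the 8 rows with a -ps symbol but another biotype, 4 were tested and none was called by edgeR, the lowest unadjusted p being 0.0871. Rpl9-ps6, annotated as protein coding, had 2049 and 2689 reads in WT and 1810 and 1906 in Npac KO (log2 fold change -0.35 ± 0.18, adjusted p = 0.195). Rps18-ps5 had 238 and 272 reads in WT and 205 and 193 in Npac KO (log2 fold change -0.36, adjusted p = 0.360). Rpl36a-ps1 and Rpl10-ps3 had 17 to 44 reads a library and were not called, and the other 4 rows had at most 1 read in any library.

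Processed pseudogenes without a -ps symbol that matched a parent by sequence also moved in both directions. Gm11478, a match to Rpl13a, had 363 and 483 reads in WT and 33 and 34 in Npac KO (log2 fold change -3.65, adjusted p = 7.04e-04). Gm10709, a match to Rpl29, had 1 and 4 reads in WT and 214 and 251 in Npac KO, and Gm10154, a match to Rpl34, 24 and 46 against 172 and 188 (log2 fold change 2.37, adjusted p = 0.00782). These rows were chosen after their values were seen.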
